A study of Ovis aries with 10 samples.

Results

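A miRNA hairpin is cut by Drosha in the nucleus and by Dicer in the cytoplasm into a short duplex, whose 5p and 3p arms are both potential mature miRNAs, and usually 1 of the arms is kept in the silencing complex while the other is degraded. The hairpins described here are the 34 for which the array carried a probe for each arm, after the hairpins miR-17, miR-30a, miR-127, miR-136, miR-154, miR-376, miR-431, miR-432, miR-433, miR-487 and miR-3955 to miR-3959 with their paralogs had been set aside. They gave 68 arms of the 152 miRNAs measured, and 34 of the 48 hairpins with both arms on the array. All 34 matched a sheep gene by hairpin name, and all 34 genes lie between DLK1 and DIO3 on chromosome 18 of the assembly ARS-UI_Ramb_v3.0. The set is therefore wholly, and not mostly, of the imprinted DLK1-DIO3 cluster, which held 55 hairpin genes of the array. The other 21 hairpins of the cluster, with 34 probes, serve for comparison.

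The DLK1-DIO3 domain carries the paternally expressed genes DLK1, RTL1 and DIO3 and, on the maternal allele, long non-coding RNAs (MEG3, called GTL2 in sheep) that run through one of the largest miRNA clusters of mammals. The miRNAs are abundant in the embryo, the placenta and the brain and are mostly low in adult tissue. In sheep the domain is known for the callipyge mutation, which causes muscle overgrowth, and in humans miRNAs of the cluster have been described in fibrotic lung. Among the hairpins here, miR-134, miR-329 and miR-381 are known for shaping dendrites and dendritic spines of neurons, and miR-493 for targeting IGF1R.

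Lung tissue from the caudal segments of 5 female sheep aged 9 months was labelled with 1 dye and profiled on 10 arrays, with 1 Fibrosis and 1 Normal segment from each of sheep 2, 3, 6, 7 and 10, which were euthanised after 4 weeks. In the study, bleomycin was infused into 1 segment to induce fibrosis and saline into the opposite segment, so that each Normal segment was the internal control within the same animal, and the sheep profiled were those with the most severe fibrosis. The labels place the Fibrosis segment on the left in sheep 2 and 3 and on the right in sheep 6, 7 and 10, whereas the methods describe the left segment as bleomycin-infused throughout. Groups follow the labels, and the values under the coding of the methods are given among the alternatives. Intensities, which were linear in the deposited table, were raised to a floor of 1 and log2 transformed, so a log2 intensity of 0 is at or below the floor. The summed miRNA intensity was 138979 to 146225 per array, and 0.476 to 1.22% of it came from the 68 arms. Of 15 listed lung, muscle and blood miRNAs, 10 were on the array, and miR-145, miR-1, miR-206, miR-223 and miR-451 were not. Of the 10, 9 had a log2 intensity of at least 5 on each array, and miR-133, a skeletal and cardiac muscle miRNA, ranged from 4.55 to 7.34. All 50 miRNAs from outside the cluster had a mean of at least 5, so these values are no check of the tissue. In whole tissue, fewer cells of a type and less RNA per cell cannot be told apart.

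The Normal array of sheep 7 stood apart from the Fibrosis array of the same animal. Over the 68 arms, Pearson's r of log2 intensity between the segments of 1 animal was 0.95, 0.93, 0.87 and 0.94 for sheep 2, 3, 6 and 10, but 0.29 for sheep 7. The Normal array of sheep 7 had an r of 0.93 with the Normal and 0.85 with the Fibrosis array of sheep 3. These correlations are across probes, which are not independent, and describe the arrays only. Over the 84 other miRNAs, whose levels span a wider range, the lowest r between any of the arrays was 0.93. The likeness was not confined to the 68 arms, although it was weaker outside the cluster. When each array was taken as its deviation from the mean of the 10 arrays, r between the segments of sheep 7 was -0.85 over the 68 arms and -0.80 over the 84 other miRNAs, and r between the Normal arrays of sheep 3 and sheep 7 was 0.84 and 0.82. Of the 84, 34 are probes of the cluster. Over the 50 miRNAs from outside the cluster, r was -0.49 between the segments of sheep 7 and 0.70 between these Normal arrays. There the Normal array of sheep 7 was nearest to the Normal array of sheep 2, at 0.73. The summed intensity of the 55 control probes was 78151 and 92402 on the Normal and Fibrosis arrays of sheep 3 and 109247 on the Normal array of sheep 7, and between 126340 and 936426 on the other 7 arrays. Their median intensity did not set these arrays apart, at 177, 119 and 158 in that order and between 72.0 and 289 on the other 7. The part of the control signal or of the label of sheep 7 in this likeness was not tested, and the changes between conditions are given with and without sheep 7.

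**Figure D1:**
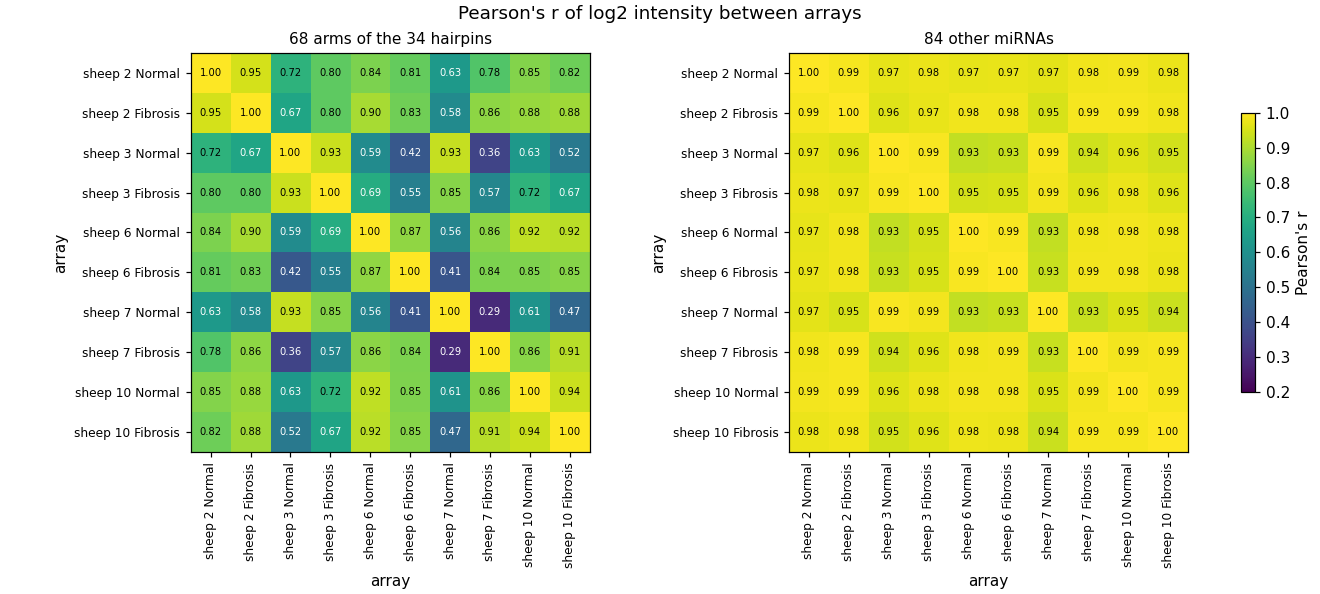
Pearson's r of log2 intensity between each pair of the 10 arrays (rows and columns, by sheep and segment), over the 68 arms on the left and over the 84 other miRNAs on the right. Over the 68 arms the Normal array of sheep 7 is near both arrays of sheep 3 (0.93 and 0.85) and far from the Fibrosis array of sheep 7 (0.29).

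Several arms were bright on those arrays and dim on the others, and miR-381-5p and miR-323a-5p, chosen after their values were seen, are examples. In sheep 2, 3, 6, 7 and 10, the log2 intensity of miR-381-5p was 2.99, 6.69, 0, 6.52 and 2.40 in the Normal segments and 2.87, 5.48, 0, 0 and 0 in the Fibrosis segments. In the same order, miR-323a-5p was at 3.48, 6.42, 1.5, 6.45 and 0.40 in the Normal and at 2.93, 5.96, 2.19, 0 and 0.68 in the Fibrosis segments. Both arms were thus at 5.48 or higher on the arrays of sheep 3, of either condition, and on the Normal array of sheep 7, and at 3.48 or lower on the other 7 arrays. Neither arm counts as detected on average, with mean log2 intensities of 2.69 and 3.00.

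Most of the cluster was near the lower limit of the array in these lungs. A mean log2 intensity of at least 5 over the 10 arrays, an intensity of 32, was reached by 4 of the 68 arms (5.88%), against 55 of the 84 other miRNAs (65.5%). The 4 were miR-494-3p at a mean of 7.79, miR-379-5p at 6.54, miR-411a-5p at 5.42 and miR-495-3p at 5.27. Just below the threshold lay miR-329b-3p at 4.86 and miR-329a-3p at 4.62, followed by miR-380-3p at 4.60, miR-411a-3p at 4.59, miR-409-3p at 4.19 and miR-493-5p at 4.09. No hairpin had both arms detected, and miR-411a came nearest. The low signal was shared by the neighbours, of which 5 of 34 probes were detected, whereas all 50 miRNAs from outside the cluster were. The median of the mean log2 intensities was 1.61 over the 68 arms and 8.92 over the 84 other miRNAs.

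Of the values of the 68 arms, 24.6% were below the floor, against 14.8% over all miRNAs. There were 42 arms below the floor on at least 1 array and 15 on 5 or more, while 26 were never below it. miR-654-3p was below the floor on all 10 arrays. The detected arms of this set came from a short stretch of the cluster. Every hairpin of the array in this stretch belonged to the set. The 5 detected probes of the neighbours therefore lay outside it, and the pattern holds for these arms only. In gene order the 4 arms all fell between miR-379 and miR-495, where the array held 14 of the 34 hairpins, and 8 of the 10 arms with a mean of at least 4 were from this stretch. The 3 hairpins before miR-379 gave 1 such arm (miR-493-5p) and the 17 after miR-495 also 1 (miR-409-3p). The median over all arms of a stretch did not follow this order, at 1.37 from miR-379 to miR-495, 1.71 before and 1.76 after it, so the stretch held bright arms beside very dim ones.

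**Figure D2:**
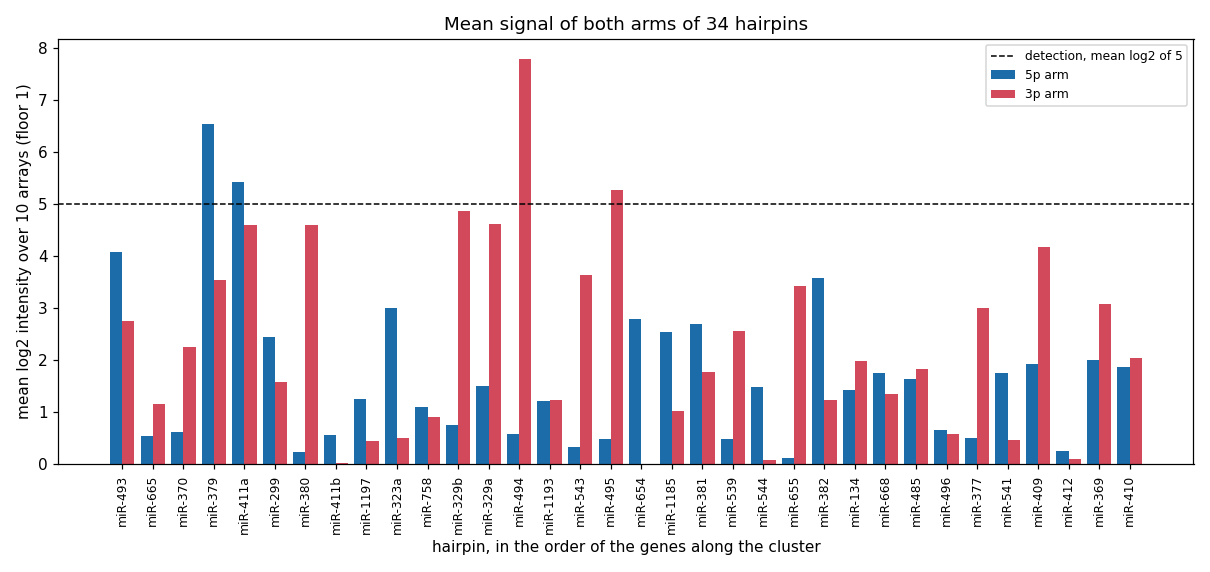
Mean log2 intensity over 10 arrays (vertical axis, floor 1) of the 5p and 3p arm of each of the 34 hairpins, in the order of their genes along the cluster. Bars of miR-379-5p, miR-411a-5p, miR-494-3p and miR-495-3p pass the dashed line at 5.

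Arm dominance was taken as the log2 intensity of the 5p arm minus that of the 3p arm, averaged over the segments of each sheep and then over the 5 sheep. Probes differ in brightness for the same amount of RNA, so this difference describes the signal, and no test was made of it. Where the dimmer arm lay below the floor, its size is set by the floor and by the level of the brighter arm, and sizes are not ranked between hairpins. The 3p arm was the brighter on average in 17 hairpins and the 5p arm in 17. The same arm was brighter on all 10 arrays in 13 hairpins, of which 8 favoured the 3p and 5 the 5p arm. Where a hairpin had an arm with a mean of at least 4, the same arm was the brighter on all 10 arrays in 9 of 9 hairpins, 6 with the 3p and 3 with the 5p arm. Among the 25 hairpins below that level it was so in 4. Arrays with both arms at the floor count for neither arm, which lowers this number. In miR-411b, for example, the 5p arm was brighter on 6 arrays and the 3p arm on 0.

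On the 3p side, the difference in miR-494 was -7.21 ± 1.21 (SD over 5 sheep), with a range over arrays from -10.14 to -5.20 and the 5p arm below the floor on 6 arrays. In miR-495 it was -4.78 ± 0.46, with the 5p arm below the floor on 4 arrays, and in miR-380 it was -4.36 ± 0.17, with 7 such arrays. In miR-329b it was -4.12 ± 0.66, with 1 such array. In the paralog miR-329a the difference was -3.13 ± 1.22. The 3p arms of the 2 paralogs were close, miR-329b-3p being 0.09 to 0.50 higher on the log2 scale on each array, and near-identical sequences can share signal on an array. The hairpins miR-655 and miR-543 were also 3p-sided, at -3.32 ± 0.48 and -3.31 ± 0.64, with 5p arms below the floor on 7 and 5 arrays. In miR-409, where neither arm was ever below the floor, the difference was -2.26 ± 0.90.

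On the 5p side, miR-379 stood at 3.01 ± 0.52, miR-654 at 2.80 ± 0.84, miR-1185 at 1.52 ± 0.25, miR-493 at 1.33 ± 0.30 and miR-411a at 0.83 ± 0.39. Each of these 5 had the brighter 5p arm on all 10 arrays. For miR-654 the difference is the 5p level itself, since its 3p arm lay below the floor throughout. The paralogs miR-411a and miR-411b differed in level, at 5.42 and 0.57 for the 5p arm. The difference was least steady in miR-381, with an SD over sheep of 3.33 around a mean of 0.93, in miR-323a (2.49 ± 2.35) and in miR-410 (-0.18 ± 2.32), where the 5p arms were bright on both arrays of sheep 3 and on the Normal array of sheep 7. Of the 14 hairpins set aside, 8 had the brighter 3p and 6 the brighter 5p arm.

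**Figure D3:**
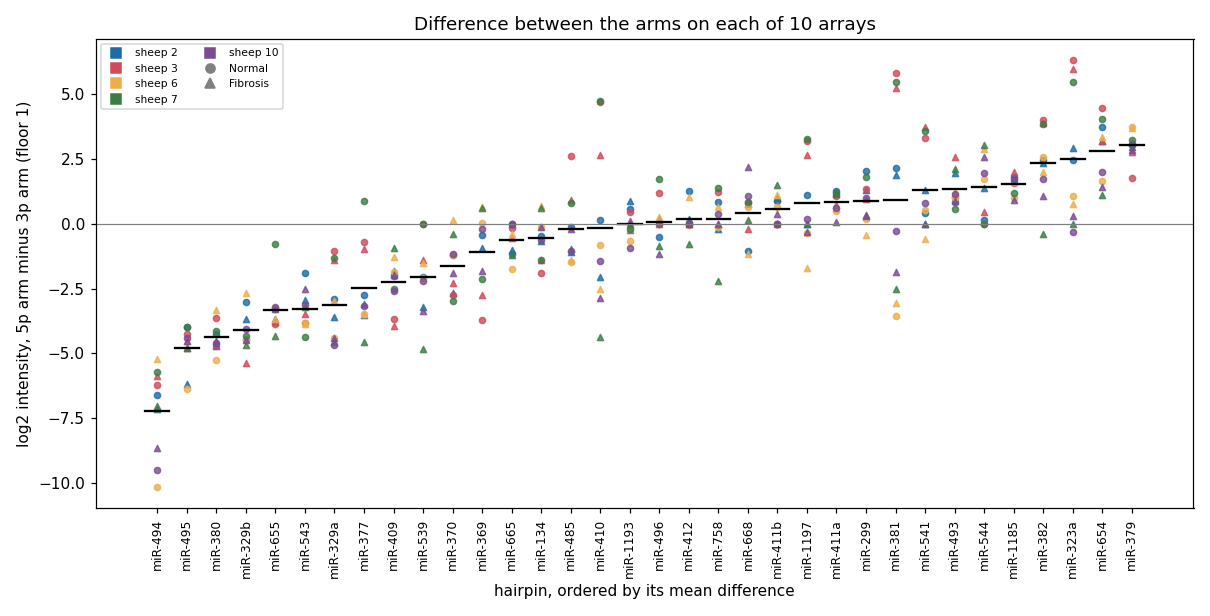
Difference between the arms, log2 5p minus log2 3p intensity (vertical axis, floor 1), on each of the 10 arrays for each of the 34 hairpins, ordered by the mean (black line). Circles are Normal and triangles Fibrosis segments, with a colour per sheep, and the points of miR-494, miR-495, miR-380 and miR-329b are all below 0 while those of miR-381 run to both sides.

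Within a sheep the arms of the cluster did not move as 1 block between the segments. Among the 4 detected arms, 3 were higher and 1 was lower in the Fibrosis segment of sheep 2, with a median log2 difference of 0.28. Sheep 3 had 2 higher and 2 lower (median 0.17), and sheep 6 and 10 had 1 higher and 3 lower each (medians -0.30 and -0.19). In sheep 7 all 4 were higher, with a median of 1.40 and a range from 1.31 to 1.59. Sheep 7 gave the most uniform shift, and it was also the animal whose Normal array resembled sheep 3. The 55 other detected miRNAs had medians from -0.07 in sheep 2 to 0.08 in sheep 6, and 0.00 in sheep 7.

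With the 10 arms at a mean of at least 4, the numbers higher and lower in the Fibrosis segment were 9 and 1 (sheep 2), 8 and 2 (sheep 3), 5 and 5 (sheep 6), 7 and 3 (sheep 7) and 5 and 5 (sheep 10). Their medians were 0.18, 0.35, -0.09, 1.32 and 0.01 in that order. The 11 other cluster miRNAs at this level were likewise mostly higher in sheep 2 (9 of 11) and sheep 3 (10 of 11), with 4 of 11 higher in sheep 6 and 7 of 11 in both sheep 7 and sheep 10. The direction therefore varied between animals, for these hairpins and for their neighbours. Over all 68 arms, 46 were higher and 16 lower in sheep 6, against 26 and 39 in sheep 2. The 50 miRNAs from outside the cluster leaned the same way, with 30 higher and 20 lower in sheep 6 and 20 and 30 in sheep 2. Of the 68 arms, 17 were below the floor in the Normal and 8 in the Fibrosis segment of sheep 6, against 4 and 11 in sheep 2. Arms of the same hairpin moved the same way in 16 of 31, 14 of 20, 19 of 28, 18 of 26 and 11 of 24 hairpins of sheep 2, 3, 6, 7 and 10, counting hairpins whose arms both differed between the segments.

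The paired comparison of Fibrosis with Normal asked whether these miRNAs differ in bleomycin-injured lung. With limma, 0 of the 152 miRNAs were called at an adjusted p under 0.05 (0%). The lowest adjusted p was 0.411, in the 68 arms as over the whole array. At an unadjusted p under 0.05, 8 of the 68 arms passed, or 11.8%, which is the background of 11.8% over all miRNAs. Of these, 4 were higher and 4 lower in Fibrosis, against 6.58% higher and 5.26% lower over the array. Of the 68 arms, 10 (14.7%) moved the same way in each of the 5 sheep, against 13.8% of all miRNAs. No arm had groups that did not overlap, against 1.32% of all miRNAs. The median log2 change was -0.0008 over the 68 arms and -0.02 over all miRNAs. Among the neighbouring 34 probes 4 had an unadjusted p under 0.05, and among the 50 miRNAs from outside the cluster 6 did. Without sheep 7 the counts were 0 called and 5 of the 68 arms at an unadjusted p under 0.05, all of them among the 8, against 6.58% over the array. Leaving out sheep 2, 3, 6 or 10 in its place gave 3, 2, 14 and 4 arms, against 5.26%, 3.95%, 17.1% and 6.58% over the array. With the left segment taken as fibrotic, as the methods describe it, the direction reversed in 11 of the 12 arms whose changes are described next. That coding swaps the segments of sheep 6, 7 and 10. Of the 12 arms, 8 were chosen by their p under the labels, and the share reversed over all miRNAs was not taken.

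The 4 detected arms had a median log2 change of 0.30, beside -0.07 over all detected miRNAs, and none of them passed the test. Without sheep 7 their median was 0.01, beside -0.04 over all detected miRNAs, and with the left segment taken as fibrotic it was 0.03. The size of this median therefore rests on that animal and on the labels. The median over all detected miRNAs was not taken with the left segment as fibrotic. Centring the arrays on the control probes moved the median of the 4 arms to 0.71. That centring scales all miRNAs of an array by the same factor, and the median over all detected miRNAs was not taken with it. miR-379-5p, the lead miRNA of the miR-379 to miR-410 run, was at 6.39, 5.13, 7.47, 5.47 and 6.67 in the Normal segments of sheep 2, 3, 6, 7 and 10 and at 6.78, 6.22, 7.49, 6.95 and 6.87 in the Fibrosis segments. It was higher in Fibrosis in 5 of 5 sheep, although by 0.01 in sheep 6, and the groups overlapped. The means were 6.23 ± 0.94 and 6.86 ± 0.45 (SD, n = 5), and the log2 change in limma was 0.64 ± 0.26 (SE), with an adjusted p of 0.427. Without sheep 7 it was 0.43 ± 0.22 (adjusted p = 0.647). The sister arm miR-379-3p was also higher in 5 of 5 sheep, with a log2 change of 0.53 ± 0.29 (adjusted p = 0.516), and 0.22 ± 0.14 without sheep 7.

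miR-494-3p, the brightest arm of the set, was at 8.0, 6.23, 10.14, 5.71 and 9.50 in the Normal and at 7.97, 5.87, 7.96, 7.02 and 9.47 in the Fibrosis segments. Both segments of sheep 10 were high and both of sheep 3 low. The arm was lowest on the arrays of sheep 3 and the Normal array of sheep 7, where the summed control intensity was also lowest. The median control intensity was not lowest there, its lowest value being 72.0 on the Fibrosis array of sheep 7. The highest control sum, 936426, was on the Normal array of sheep 6, where the arm was at 10.14. With a sum of 653002, the Fibrosis array of sheep 6 was below both arrays of sheep 10, which had 275300 and 522906. The part of the control signal in these levels was not tested. The log2 change was -0.26 ± 0.49 (95% interval -1.49 to 0.98, adjusted p = 0.835), lower in 4 of 5 sheep, and without sheep 7 it was -0.65 ± 0.43. Of the fall in sheep 6, by 2.19, nothing comparable was seen in sheep 2 or sheep 10, which differed by 0.03 each.

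miR-411a-5p was at 5.88, 5.31, 5.59, 4.74 and 5.24 in the Normal and at 6.04, 5.11, 5.39, 6.07 and 4.88 in the Fibrosis segments, and was higher in 2 and lower in 3 sheep. The log2 change was 0.15 ± 0.28 (interval -0.56 to 0.86, adjusted p = 0.835), and without sheep 7 it turned to -0.15 ± 0.15. miR-495-3p was at 5.38, 4.26, 6.35, 3.99 and 5.23 in the Normal and at 6.55, 4.80, 5.94, 5.58 and 4.62 in the Fibrosis segments. It was higher in sheep 2, 3 and 7 and lower in sheep 6 and 10, with a log2 change of 0.46 ± 0.38 (interval -0.50 to 1.41, adjusted p = 0.540), or 0.17 ± 0.35 without sheep 7.

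The 8 arms with an unadjusted p under 0.05 were all undetected, with mean log2 intensities between 1.25 and 4.09, and 6 of them were below the floor on at least 1 array. The 5 with the smallest p are described first. miR-539-3p was at 3.56, 0, 2.10, 0 and 2.22 in the Normal segments of sheep 2, 3, 6, 7 and 10 and at 3.92, 1.41, 4.25, 4.82 and 3.36 in the Fibrosis segments, higher in 5 of 5 sheep. The log2 change was 1.98 ± 0.66 (adjusted p = 0.411 in limma), and 1.27 ± 0.31 without sheep 7. miR-544-5p had a like pattern at a lower level, with 0.74, 0, 1.73, 0 and 1.97 in the Normal and 1.36, 0.43, 2.87, 3.03 and 2.79 in the Fibrosis segments. Its change was 1.21 ± 0.42 (adjusted p = 0.411), and 0.75 ± 0.17 without sheep 7. Both arms were lowest on the arrays of sheep 3 and on the Normal array of sheep 7.

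miR-493-5p was the brightest of the 8, at 4.01, 3.48, 4.06, 2.53 and 3.39 in the Normal and at 5.49, 4.77, 4.15, 5.35 and 3.65 in the Fibrosis segments. It was never below the floor and was higher in 5 of 5 sheep, by between 0.08 in sheep 6 and 2.82 in sheep 7, with a change of 1.19 ± 0.43 (adjusted p = 0.411), and 0.78 ± 0.30 without sheep 7. miR-1197-5p was at 1.09, 3.83, 1.04, 3.69 and 0.17 in the Normal segments and at 0 in the Fibrosis segments except for 2.64 in sheep 3. Its change was -1.44 ± 0.52 (adjusted p = 0.411), and -0.87 ± 0.22 without sheep 7. miR-410-5p was at 1.60, 4.70, 1.86, 4.72 and 0.89 in the Normal and at 0.94, 3.98, 0, 0 and 0 in the Fibrosis segments. Its change was -1.77 ± 0.67 (adjusted p = 0.411), and -1.03 ± 0.25 without sheep 7. Both arms were lower in 5 of 5 sheep, and their high values came from sheep 3 and the Normal segment of sheep 7.

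The other 3 were chosen after their values were seen. miR-134-3p changed by -1.48 ± 0.58, miR-668-3p by -0.72 ± 0.27 and miR-369-3p by 0.68 ± 0.26, each with an adjusted p of 0.411. Without sheep 7 these changes were -0.88 ± 0.32, -0.48 ± 0.21 and 0.60 ± 0.30, and without sheep 10 that of miR-369-3p was 0.45. miR-134-3p was lower in 5 of 5 sheep, from 0.20 lower in sheep 2 to 3.87 lower in sheep 7. miR-668-3p was lower in 4 sheep and at the floor in both segments of sheep 10, and miR-369-3p was higher in 5 of 5 sheep. The 5p arm of miR-134, which is the arm known from neurons, had a change of -0.76 ± 0.36 (adjusted p = 0.490), and -0.48 ± 0.32 without sheep 7.

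**Figure D4:**
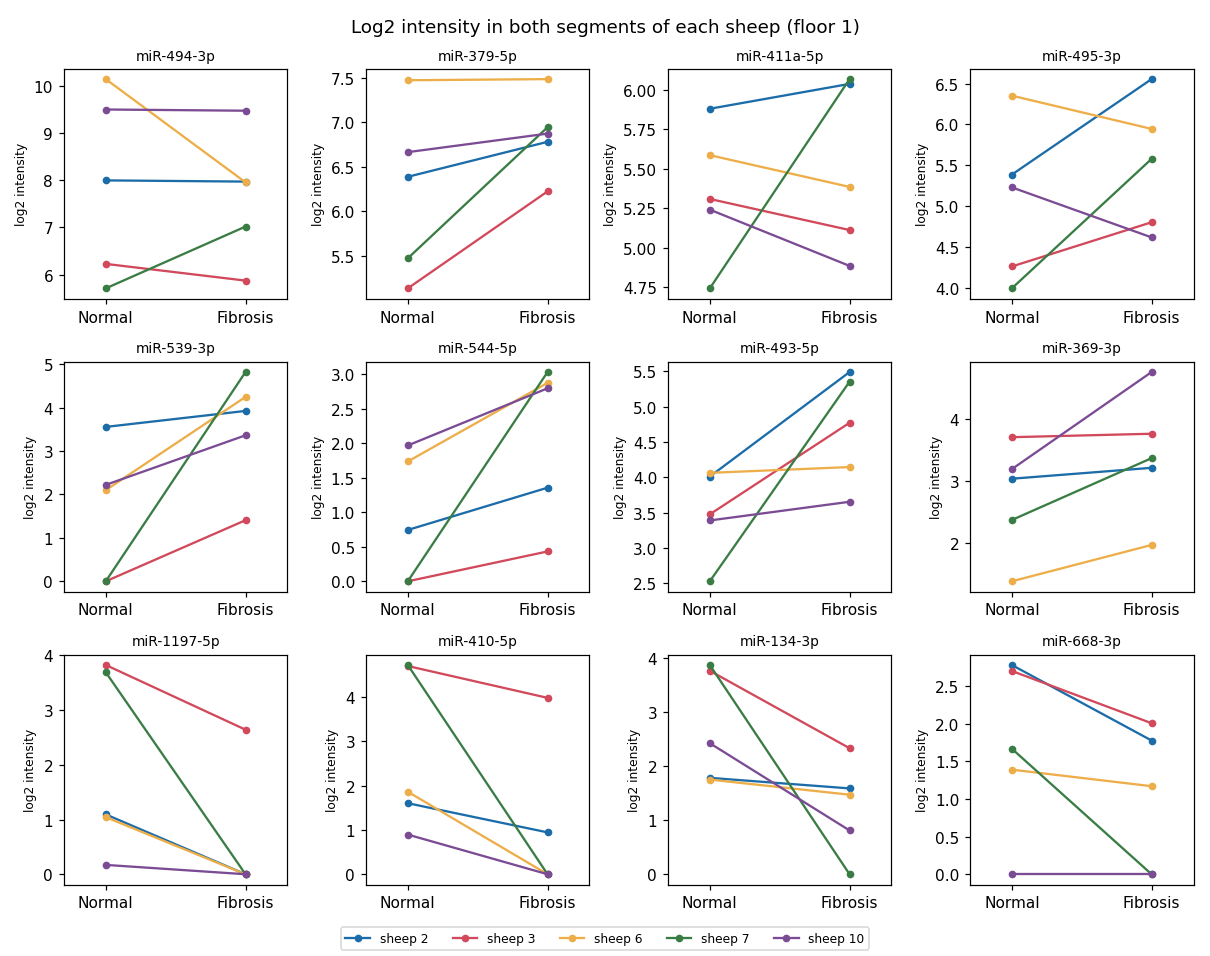
Log2 intensity (vertical axis, floor 1, own range per panel) in the Normal and the Fibrosis segment of each sheep (line) for the 4 detected arms in the top row and the 8 arms with an unadjusted p under 0.05 below. The line of sheep 7 is the steepest in 10 panels, and the groups overlap in every panel.

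The arm ratio, log2 5p minus log2 3p on the same array, cancels the brightness of the probes when it is compared between segments, and so its change can be tested. Over the 48 hairpins with both arms on the array, limma called 0 at an adjusted p under 0.05 (0%), with a smallest adjusted p of 0.399. At an unadjusted p under 0.05 there were 3 of the 34 hairpins, miR-410, miR-1197 and miR-544, beside 8.33% over all 48. The next 2 by p were miR-539 and miR-299. Each of these 5 hairpins had an arm below the floor on at least 1 array. Without sheep 2 the count of 3 fell to 1, beside 2 of all 48.

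In miR-410 the ratio was 0.15, 4.70, -0.80, 4.72 and -1.43 in the Normal segments of sheep 2, 3, 6, 7 and 10 and -2.04, 2.63, -2.51, -4.36 and -2.86 in the Fibrosis segments. It was lower in Fibrosis in 5 of 5 sheep, by 1.43 to 2.19 in 4 of them. In sheep 7 the 3p arm was at the floor in the Normal and the 5p arm in the Fibrosis segment, so the difference of 9.08 on that animal depends on the floor. The 3p arm was also at the floor in the Normal segment of sheep 3, and the 5p arm in the Fibrosis segments of sheep 6 and 10. The size of the difference in these sheep, and with it the result without sheep 7, thus depends on the floor too. The change was -3.29 ± 1.10 (adjusted p = 0.399 in limma). Without sheep 7 it was -1.85 ± 0.31 and passed the threshold, at an adjusted p of 0.0215, so the call depends on that animal. Neither arm passed the test on its own. miR-410-5p was lower in 5 of 5 sheep, as described above, and miR-410-3p was higher in 4 of 5. The 3p arm was at 1.45, 0, 2.67, 0 and 2.33 in the Normal and at 2.99, 1.35, 2.51, 4.36 and 2.86 in the Fibrosis segments, a change of 1.52 ± 0.67 (adjusted p = 0.468), and 0.81 ± 0.33 without sheep 7 (adjusted p = 0.638).

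In miR-1197 the ratio was 1.09, 3.18, -0.35, 3.28 and 0.17 in the Normal and 0, 2.64, -1.71, 0 and -0.32 in the Fibrosis segments, lower in 5 of 5 sheep. The change was -1.35 ± 0.52 (adjusted p = 0.399), and -0.87 ± 0.32 without sheep 7 (adjusted p = 0.348). In miR-544 it was 0.14, 0, 1.73, 0 and 1.97 in the Normal and 1.36, 0.43, 2.87, 3.03 and 2.56 in the Fibrosis segments, higher in 5 of 5 sheep. Its change of 1.28 ± 0.50 (adjusted p = 0.399) is close to that of miR-544-5p, because miR-544-3p was below the floor on 8 arrays, and without sheep 7 it was 0.84 ± 0.31. The ratio of miR-539 changed by -1.59 ± 0.73 and was lower in 4 of 5 sheep, and that of miR-299 by -0.77 ± 0.39, lower in 5 of 5 sheep (both with an adjusted p of 0.490). Without sheep 7 these were -0.78 ± 0.41 and -0.59 ± 0.29.

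**Figure D5:**
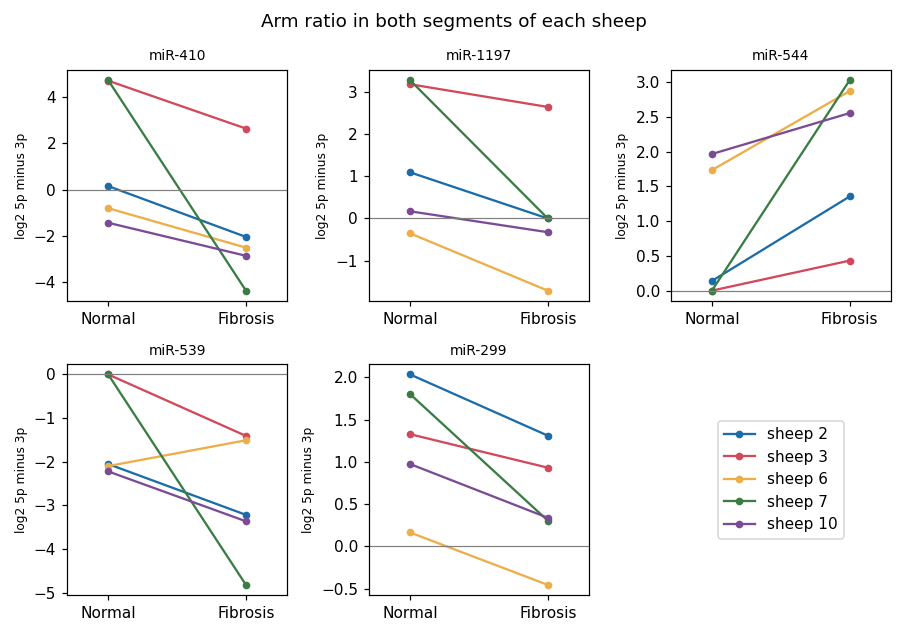
Arm ratio, log2 5p minus log2 3p intensity (vertical axis, own range per panel), in the Normal and the Fibrosis segment of each sheep (line) for the 5 hairpins with the smallest p. The ratio of miR-410 is lower in the Fibrosis segment of each sheep, with the steepest line in sheep 7 (by 9.08).

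The ratio was also compared in the 4 hairpins with a detected arm, which had the same brighter arm on all 10 arrays, and none of them passed the test. In miR-494 the ratio averaged -7.63 ± 2.03 in the Normal and -6.78 ± 1.32 in the Fibrosis segments (SD, n = 5), a change of 0.86 ± 0.86 (interval -1.13 to 2.85), and 1.40 ± 0.83 without sheep 7. In miR-495 it averaged -4.59 ± 1.0 and -4.97 ± 0.68, a change of -0.38 ± 0.59 (interval -1.75 to 1.0), and -0.27 ± 0.60 without sheep 7. In miR-379 it averaged 2.96 ± 0.73 and 3.06 ± 0.37, a change of 0.11 ± 0.41 (interval -0.83 to 1.05), and 0.20 ± 0.33 without sheep 7. In miR-411a the change was -0.17 ± 0.38 (interval -1.05 to 0.71), and -0.20 ± 0.30 without sheep 7.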

How the data were processed

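Per the methods, total RNA was hybridised to a custom ovine array with 21 spots per probe. The authors deposited 1 background-corrected, averaged intensity per probe and array. The values were linear, although the methods name log2 data, and any scaling between arrays is not given in the sources used here. Intensities were raised to 1 and log2 transformed. Conditions, taken from the labels, were compared with limma 3.58.1 (R 4.3.3), using the sheep as a block, with Benjamini-Hochberg adjustment over 152 miRNAs, or 48 hairpins for arm ratios. Segments were paired as they came from the same animal. Over the 68 arms, deviations of paired segments from the mean of their own condition correlated at 0.32, 0.92, 0.24, -0.72 and 0.65 in sheep 2, 3, 6, 7 and 10. The fits were tested on simulated data. Cluster genes lay less than 100 kb from a neighbour, and coordinates are not given because no array build is named. Arms were named when detected or among the 5 smallest p values of a fit. Members, lists and rules were chosen with earlier results of these data known. Alternatives covered scaling, floor, filter, block, side, left-out sheep, detection threshold, intensity trend and a Student's test paired over sheep. The methods applied Student's test to each sheep separately, which 1 value per probe and array does not allow. The number of arrays limits the precision.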

Additional observations from a re-analysis of the deposited data

Results flagged for a closer look

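Among the named arms and arm ratios, 34 groups of 5 arrays were screened for a value far from the other 4, and 2 were found. Chance gives about 1 in 20 where values are not tied. That rate does not hold for the 2 found, as several values in each were tied at the floor. In the Fibrosis segments, miR-1197-5p was at a log2 intensity of 2.64 in sheep 3 and at 0 in the other 4 sheep. In the same segments, miR-410-5p was at 3.98 in sheep 3, and the next highest value was 0.94. Both flagged values came from the same array, and the cause was not tested.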

How the results depend on the processing

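The count of the 68 arms at an unadjusted p under 0.05, 8 with all sheep, was 0 with a floor of 32 or with the Student's test paired over sheep, 1 with a filter on dim probes, 2 with the left segment as fibrotic, 3 with side as a covariate and 2 to 14 when a sheep was left out. The extremes came without sheep 3 (2, beside 3.95% of all miRNAs) and without sheep 6 (14, of which 3 were among the 8, beside 17.1%), and without sheep 2, 7 and 10 it was 3, 5 and 4 (beside 5.26%, 6.58% and 6.58%). Without the replicate block of the paired design the count was 5. The count of hairpins by arm ratio, 3 with all sheep, was 0 with a floor of 32 or no replicate block, 1 with the left segment as fibrotic, side as a covariate or the Student's test, and 1 to 3 when a sheep was left out, 1 being without sheep 2. The number of arm ratios called ran from 0 to 1, the 1 being miR-410 without sheep 7. Centring on the control probes gave 1 called miRNA, miR-539-3p, with a change of 2.39. The detected arms numbered 10 at a threshold of 4, 2 at a threshold of 6 and 2 at 5 or more on each array. A floor of 32 left 5 hairpins with a brighter 3p arm. Hairpins with both arms at or below 32 on every array are tied there and count for neither arm.

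With the left segment as fibrotic, the log2 change reversed in 11 named arms, to -0.042 for miR-379-5p, -0.16 for miR-411a-5p, 0.10 for miR-494-3p, 0.53 for miR-1197-5p, 0.83 for miR-134-3p, -0.58 for miR-369-3p, 1.22 for miR-410-5p, -0.079 for miR-493-5p, -1.27 for miR-539-3p, -0.79 for miR-544-5p and 0.038 for miR-668-3p. The arm ratios reversed too, to 1.59 for miR-410, 0.70 for miR-1197, -0.62 for miR-544, 0.56 for miR-539 and 0.33 for miR-299, so these directions depend on the labels of sheep 6, 7 and 10. miR-494-3p also reversed to 0.037 with quantile normalization and 0.15 with control centring, and ran from -0.65 without sheep 7 to 0.23 without sheep 6. miR-411a-5p reversed to -0.010 with median centring and ran from -0.15 without sheep 7 to 0.27 without sheep 10. A floor of 32 gives no value for arms that lie wholly below it, and the filter on dim probes left no hairpin for the arm ratio. The low signal of most arms limits what these arrays can show.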
